A study of Mus musculus with 7 samples.

Results

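Nuclear-encoded subunits of the mitochondrial respiratory chain were followed in macrophages of glioblastoma xenografts, with and without the deacetylase inhibitor Pracinostat. The members were taken from the deposited gene table by symbol: Ndufa, Ndufb, Ndufc, Ndufs and Ndufv genes for complex I, Sdha to Sdhd for complex II, Uqcr genes for complex III, Cox4 to Cox8 genes for complex IV and Atp5 genes for complex V. Of 93 rows that match, 6 rows with -ps (pseudogene) symbols and 3 rows with fewer than 70 counts over the 7 libraries were dropped. This left 84 genes of the 25571 in the table, 41 in complex I, 4 in complex II, 8 in complex III, 13 in complex IV and 18 in complex V. All 84 also passed the low-count filter of the test. Just outside the count limit were Ndufa11b (64 counts), Cox6b2 (47) and Cox4i2 (15), and just inside were Cox7a1 (79) and Ndufa4l2 (82). Ndufa11b held 20, 31 and 11 counts in DMSO replicates 1 to 3 and 0, 2, 0 and 0 in Pracinostat replicates 1 to 4. Its groups did not overlap, so the number of such genes given below depends on this limit.

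Cells positive for CD11b, the integrin chain encoded by Itgam, were sorted from dissociated T387 glioblastoma tumours that had grown in the brains of NSG mice, a strain without T, B or NK cells. Both groups carried the same xenograft, the same strain background and the same solvent. There were 4 libraries from mice given Pracinostat by oral gavage at 30 mg/kg, 4 times weekly over 3 weeks from day 7 after implantation, and 3 from mice given the DMSO-containing solvent alone. The labels also give a strength of 3 mg/kg for the prepared drug, and which of these figures describes the dose given was not resolved. The labels call these samples biological replicates but do not tie them to animals or give ages, so p-values measure only the spread between samples. CD11b is also carried by neutrophils and other myeloid cells.

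The respiratory chain sits in the inner mitochondrial membrane. Complexes I and II take electrons from NADH and succinate, complex III passes them to cytochrome c, and complex IV hands them to oxygen, while complexes I, III and IV pump protons that drive ATP synthesis by complex V. Most subunits are encoded in the nucleus, and a core set by mitochondrial DNA. Macrophages shift between this pathway and glycolysis as they are activated. Mitochondrially encoded subunits have no row in the table (0 rows start with mt-) and were not analysed here.

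Library totals ranged from 10142753 to 16950597 counts, with 16319 to 19244 genes detected. The sorted antigen Itgam averaged 1469 CPM (counts scaled to library size) under DMSO and 1809 CPM under Pracinostat, and the microglial markers Cx3cr1 and Tmem119 were present in both groups. DMSO replicate 2 and Pracinostat replicate 1 stood apart by the summed fibroblast markers, 1058 and 697 CPM, where the remaining 5 libraries had 19.5 to 61.8 CPM. These sums were nearly all collagen (Col1a1, Col1a2 and Col3a1). The fibroblast marker Pdgfra was at 4.15 and 3.40 CPM in them and at 0 to 4.08 CPM in the rest. Dcn was at 1.84 and 0.82 CPM against 0 to 1.49 CPM, and Lum was lower still. Pracinostat replicate 1 also held the most oligodendrocyte marker transcripts, 1045 CPM, where the rest had 189 to 361 CPM. The summed neuron markers were higher in every Pracinostat library (3.43 to 7.62 CPM) than in any DMSO library (1.80 to 2.87 CPM). No neuron marker separated the groups by itself, and each was at 3.04 CPM or lower in every library. The summed striated muscle markers were lower (3.09 to 6.5 CPM against 11.1 to 36.9 CPM), mainly through Ttn (0.58 to 2.67 CPM against 9.97 to 23.5 CPM). Actn2 went the other way, at 1.25 to 1.56 CPM with Pracinostat and 0 to 0.16 CPM with DMSO. The groups overlapped for the other muscle markers. The summed neutrophil markers overlapped between the groups, at 279 to 581 CPM with DMSO and 366 to 601 CPM with Pracinostat. Most of each sum was Csf3r (271 to 410 CPM), while Ngp ran from 0 to 99.8 CPM over the libraries. The part of all these other cells in the results was not tested.

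No respiratory chain subunit passed the test between Pracinostat and DMSO. By edgeR's quasi-likelihood test, 0 of 84 members had an adjusted p under 0.05, against 0% of the 15822 genes tested, and the lowest adjusted p of a member was 0.9998. At an unadjusted p under 0.05, 2 members were lower with Pracinostat, Cox5b and Atp5mk, where 1.37% of all genes tested were, and 0 were higher, where 2.81% of all genes were. DESeq2 and limma-voom also called 0 members. The groups did not overlap for 1 member, Cox5b, which was lower in every Pracinostat library (2.59% of all genes tested), and for 0 members in the other direction (3.5% of all genes). These counts are too few to set the members apart from other genes. In sorted bulk RNA, fewer cells of a type and less RNA per cell cannot be told apart.

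The fold changes leaned to the negative side without passing. Of the 84 members 53 (63.1%) had a negative log2 fold change, Pracinostat minus DMSO, where 47.7% of all genes tested did, and their median was -0.08 against 0.02 over all genes. By complex, the median was -0.02 for complex I (23 of 41 negative), -0.12 for complex II (4 of 4), 0.08 for complex III (3 of 8), -0.21 for complex IV (12 of 13) and -0.11 for complex V (11 of 18). This lean depended on single control libraries. Without DMSO replicate 1 the negative members numbered 34 and the median was 0.04, and without DMSO replicate 2 they numbered 68 with a median of -0.27. The shares of all genes were not counted in these fits. Complex IV kept a negative median in both cases (-0.02 and -0.44), with 8 and 12 of its 13 members negative.

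Levels were read in 95% intervals as well as in p-values. For 52 of the 84 members, the interval of the fold change lay within a 2-fold change in either direction, so a larger difference in the mean was outside the interval. The median distance from the estimate to the interval's end was 0.64 on the log2 scale. The intervals of the remaining members reached past a 2-fold change in at least 1 direction.

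**Figure D1:**
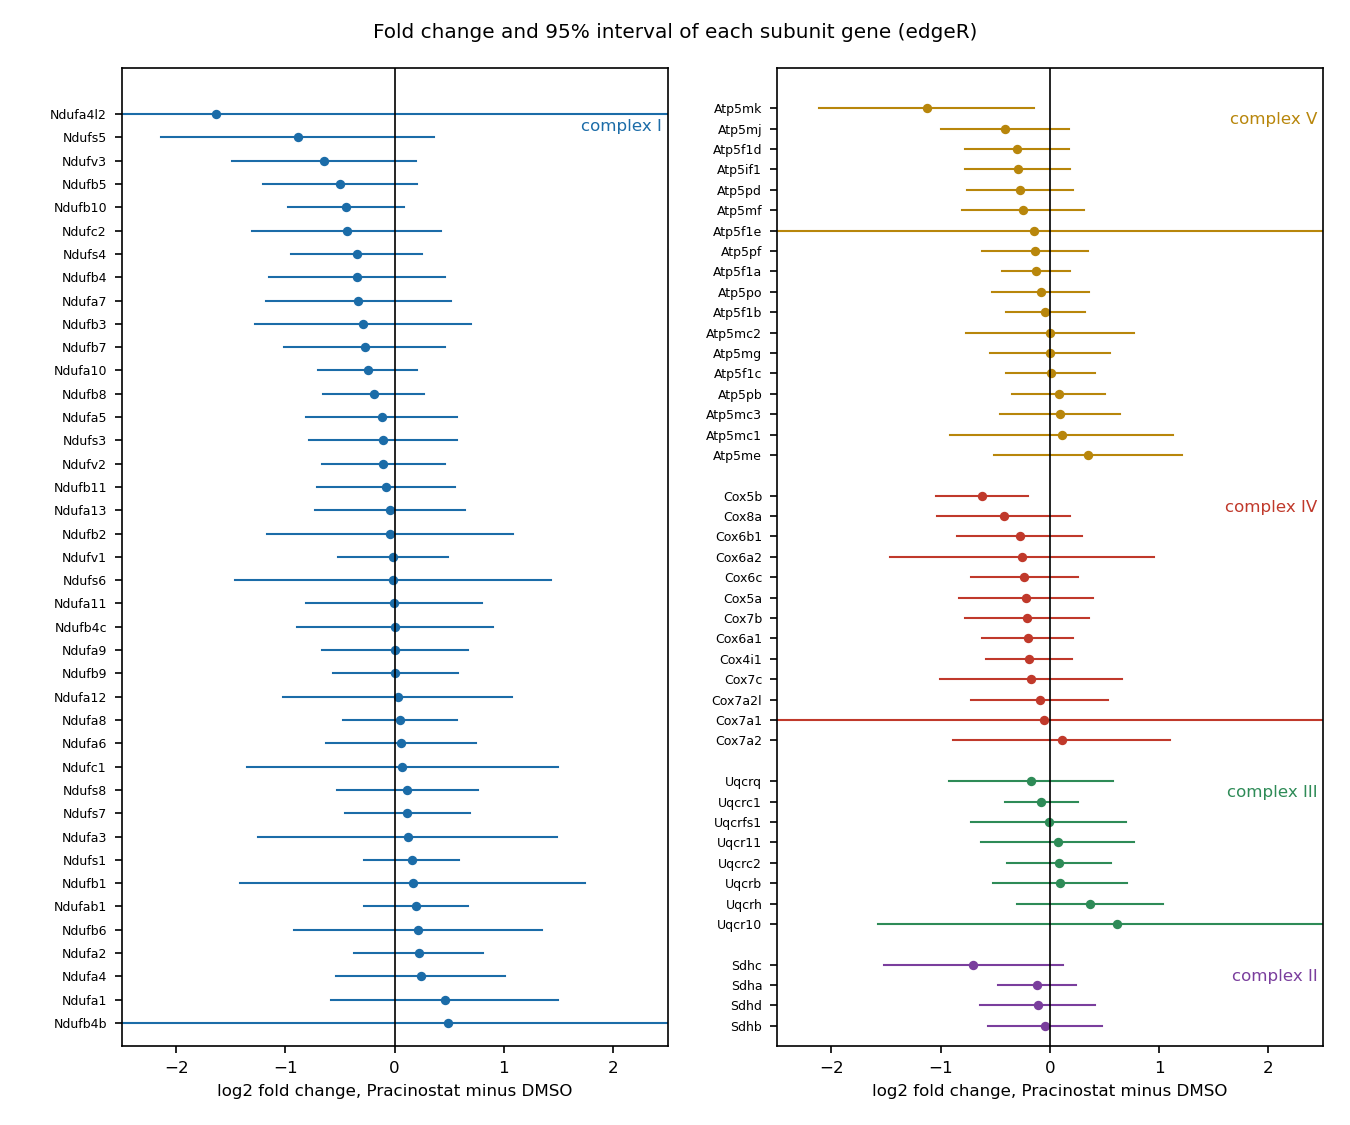
Log2 fold change (horizontal axis, Pracinostat minus DMSO) of 83 of the 84 subunit genes, each as a point with its 95% interval from edgeR, coloured by complex; the axis ends at 2.5 in both directions, and longer intervals are drawn up to there. The intervals of 81 genes drawn cross 0, and those of Cox5b and Atp5mk lie below it before adjustment for the number of genes tested.

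The members differed more between control libraries than between the groups. Over the 84 members, the mean of log2 CPM minus each gene's own mean was 0.40 in DMSO replicate 1, -0.33 in DMSO replicate 2 and 0.04 in DMSO replicate 3. It was 0.30, -0.19, -0.10 and -0.12 in Pracinostat replicates 1 to 4. Over all members, DMSO replicates 1 and 2 thus marked the top and the bottom, and the 4 Pracinostat libraries lay between them. Complexes I and IV kept this order by themselves. In complex III Pracinostat replicate 1 was the top (0.41, against 0.37 in DMSO replicate 1). In complex II Pracinostat replicate 4 was the bottom (-0.26, against -0.17 in DMSO replicate 2). In complex V Pracinostat replicates 2 and 3 (both -0.20) lay below DMSO replicate 2 (-0.13). DMSO replicate 1 was the highest library for 43 of the 84 members, and DMSO replicate 2 the lowest for 34 (40.5%, against 23% of all genes tested).

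Level for level, DMSO replicate 1 exceeded DMSO replicate 2 in 76 of 84 members (90.5%), where 52.2% of all genes did, with a median difference of 0.66 on the log2 scale. For 32 members (38.1%) all 4 Pracinostat values lay inside the range of the 3 DMSO values, as they did for 20.4% of all genes. The standard deviation of log2 CPM was larger among DMSO than among Pracinostat libraries for 66 members (78.6%, against 53.9% of all genes). With 3 and 4 libraries, these are descriptions of the samples at hand.

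**Figure D2:**
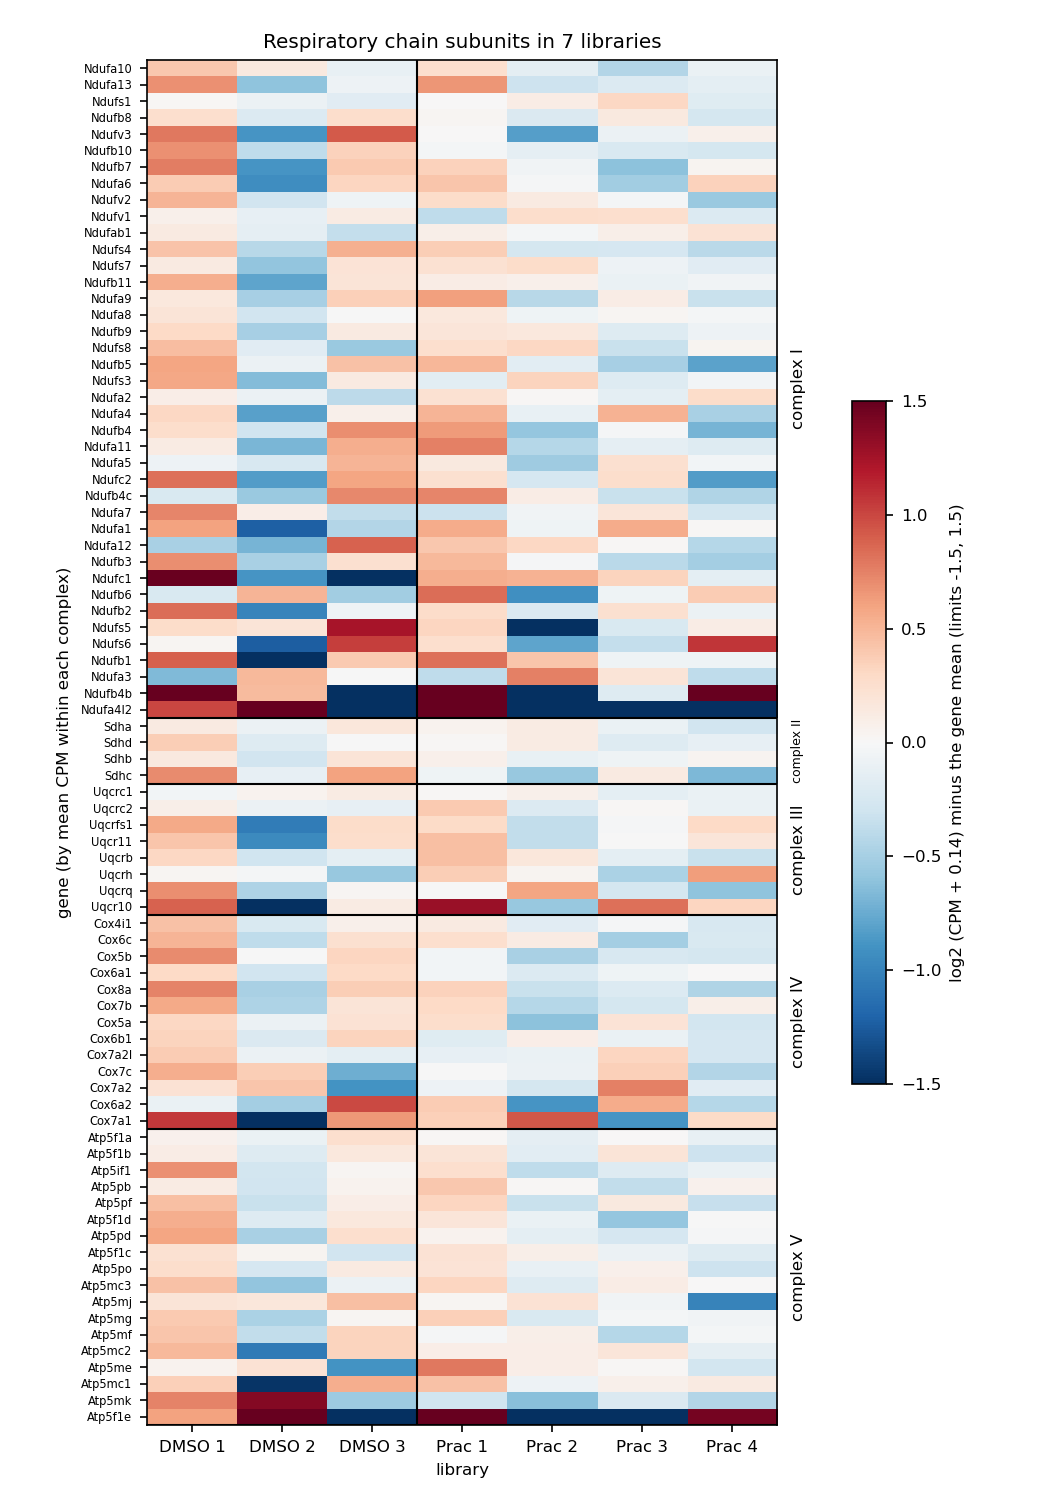
Each row is 1 of 83 subunit genes drawn, ordered by complex and, within it, by mean CPM; each column is 1 library, and colour gives the deviation of log2 (CPM + 0.14) from that gene's average, limited to 1.5 in either direction. The column of DMSO replicate 1 is mostly red and that of DMSO replicate 2 mostly blue. The column of Pracinostat replicate 1 leans to red, and those of Pracinostat replicates 2 to 4 are paler on average.

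The summed level of all members was 4308, 2870 and 3814 CPM in DMSO replicates 1 to 3 and 3873, 3166, 3247 and 3064 CPM in Pracinostat replicates 1 to 4. This gave 3664 ± 730.4 CPM (SD, n = 3) and 3337 ± 364.6 CPM (SD, n = 4), with overlapping groups. Within every complex the sums overlapped too. Complex IV summed to 635.4 ± 156.8 CPM in DMSO libraries (SD, n = 3) and to 523.8 ± 58.98 CPM in Pracinostat libraries (SD, n = 4), its 4 Pracinostat values (483 to 610 CPM) all inside the DMSO range of 475 to 788 CPM. Complex III had nearly equal sums, 282 ± 44.7 CPM (SD, n = 3) and 285.1 ± 29.98 CPM (SD, n = 4). Of the 2 libraries rich in collagen transcripts, DMSO replicate 2 had the lowest and Pracinostat replicate 1 the second highest summed member level. Without both, the median fold change of the 83 members then tested was -0.36, with 70 negative, and 14 members were lower at an unadjusted p under 0.05. The shares of all genes were not counted in this fit, so these counts have no background beside them. The part of collagen transcripts, or of the cells that hold them, in these values was not tested.

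Promoters of the members were searched for letters that nuclear factors are known to bind. NRF1 and the ETS factor GABPA are classical activators of these genes, and YY1 binds many of their start sites. RefSeq promoters (GRCm38.p6, 250 bases before to 50 after the start) matched 67 of the 84 members, under the 80% needed for a statement on the whole set, so a comparison of the set with other genes is void and the shares describe only the matched promoters. Either strand was searched. Of the 72 member promoters, 29.2% held GCGCANGCG (NRF1), where 8.58% of 21254 promoters of coding genes and 6.25% of all 32841 promoters did. CCGGAAG (GABPA and other ETS factors) was in 22.2%, against 11.6% of coding and 8.86% of all promoters, and AAGATGGC (YY1) in 13.9%, against 3.05% and 2.75%. CCAAT was in 38.9%, against 38.2% and 37.4%, and TATAAA in 8.33%, against 12.6% and 13.6%. None of these 5 motifs contains another, and a match is a description of letters, not a site. Promoters of 17 members were not in the table, including those of Atp5f1a, Cox4i1, Sdhc, Atp5mk and Atp5mj.

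Fold changes were set beside the motifs without a test. The 20 members with the NRF1 letters had a median of -0.05 (12 negative) and the 47 without the NRF1 letters a median of -0.06 (30 negative). For CCGGAAG the medians were -0.11 over 16 members with it and -0.04 over 51 without it. AAGATGGC went the other way, at -0.004 over 10 members with it and -0.08 over 57 without it. CCAAT gave -0.06 over 27 and -0.05 over 40, and TATAAA 0.002 over 5 and -0.07 over 62.

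The promoters below are those of Cox5b, the 1 member whose groups did not overlap, of Sdha, Cox6a1 and Cox8a as carriers of the NRF1 and ETS letters, and of Atp5pb, the most abundant member with the YY1 letters. Each is written 5′ to 3′ in the direction of transcription, with matches to any of the 5 motifs in capitals. Sdha holds 3 separate stretches with the NRF1 letters, Cox6a1 holds 2 with a CTTCCGG (the ETS letters on the other strand), Cox8a holds 2 ETS stretches, and Cox5b holds none of the 5 motifs.
Cox5b (chr1:36691237-36691536, plus strand): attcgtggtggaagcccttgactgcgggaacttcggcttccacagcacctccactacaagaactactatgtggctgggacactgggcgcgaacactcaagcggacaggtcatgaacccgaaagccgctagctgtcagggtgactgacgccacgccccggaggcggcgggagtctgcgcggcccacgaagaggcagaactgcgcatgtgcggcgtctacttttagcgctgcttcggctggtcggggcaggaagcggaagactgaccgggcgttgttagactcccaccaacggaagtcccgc
Sdha (chr13:74350191-74350490, minus strand): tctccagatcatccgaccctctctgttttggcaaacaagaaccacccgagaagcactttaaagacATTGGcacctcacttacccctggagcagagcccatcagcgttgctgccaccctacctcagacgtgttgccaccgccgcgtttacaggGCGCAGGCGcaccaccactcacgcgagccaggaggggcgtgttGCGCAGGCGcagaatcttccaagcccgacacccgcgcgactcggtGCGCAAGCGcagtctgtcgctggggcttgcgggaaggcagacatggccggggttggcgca
Cox6a1 (chr5:115348909-115349208, minus strand): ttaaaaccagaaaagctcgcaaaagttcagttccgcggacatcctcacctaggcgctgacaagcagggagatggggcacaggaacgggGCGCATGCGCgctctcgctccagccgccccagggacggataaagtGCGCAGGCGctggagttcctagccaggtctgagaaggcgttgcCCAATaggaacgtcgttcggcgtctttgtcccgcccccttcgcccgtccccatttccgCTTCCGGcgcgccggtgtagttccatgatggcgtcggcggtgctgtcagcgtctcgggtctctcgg
Cox8a (chr19:7217567-7217866, minus strand): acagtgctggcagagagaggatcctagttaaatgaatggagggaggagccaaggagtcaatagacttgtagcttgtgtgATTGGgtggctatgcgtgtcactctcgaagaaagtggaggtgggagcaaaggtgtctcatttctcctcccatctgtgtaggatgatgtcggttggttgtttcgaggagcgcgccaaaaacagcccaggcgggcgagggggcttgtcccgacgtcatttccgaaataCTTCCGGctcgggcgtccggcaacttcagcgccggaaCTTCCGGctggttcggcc
Atp5pb (chr3:105959214-105959513, minus strand): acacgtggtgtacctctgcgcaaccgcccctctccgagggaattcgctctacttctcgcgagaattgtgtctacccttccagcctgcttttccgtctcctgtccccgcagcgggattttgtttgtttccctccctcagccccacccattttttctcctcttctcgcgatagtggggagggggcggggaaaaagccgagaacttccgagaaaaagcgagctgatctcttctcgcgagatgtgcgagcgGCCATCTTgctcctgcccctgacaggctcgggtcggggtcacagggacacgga

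Complex I, NADH dehydrogenase, has a hydrophilic arm that oxidises NADH and a membrane arm that pumps protons. The members with the smallest p were all accessory subunits. Ndufb10, of the membrane arm, stood at 67.0, 31.8 and 52.8 CPM in DMSO replicates 1 to 3 and at 40.7, 37.9, 35.4 and 34.5 CPM in Pracinostat replicates 1 to 4. Its Pracinostat values were close together and lay inside the DMSO range, and the log2 fold change was -0.44 ± 0.25 (SE; edgeR adjusted p = 0.9998). Ndufv3, attached to the NADH-oxidising module, stood at 70.2, 21.9 and 76.8 CPM with DMSO and at 40.5, 22.8, 38.0 and 42.7 CPM with Pracinostat. The low values of DMSO replicate 2 and Pracinostat replicate 2 set its spread, and its fold change was -0.65 ± 0.38 (SE). Ndufb5, another membrane arm subunit, read 33.4, 20.8 and 30.1 CPM with DMSO and 31.2, 19.8, 15.6 and 12.6 CPM with Pracinostat, for -0.50 ± 0.33 (SE).

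Ndufa10, the member of complex I with the highest CPM, stood at 77.0, 64.2 and 53.9 CPM with DMSO and 69.6, 52.4, 42.9 and 54.2 CPM with Pracinostat, so the groups overlapped (-0.25 ± 0.21, SE). Of the catalytic core, Ndufs1, the iron-sulfur subunit, was at 0.16 ± 0.20 (SE), and Ndufv1, which binds NADH, at -0.02 ± 0.24 (SE). Over the 41 members, estimates ran from -1.64 to 0.49. Both ends were low genes, Ndufa4l2 and Ndufb4b, with intervals wider than the axis of the fold change plot. Ndufs5 (-0.89 ± 0.58, SE) held 617 counts, and the pseudogene row Ndufs5-ps held 710. How the counting divided reads between near-identical copies was not tested, so this value is uncertain, as is that of Ndufa12, beside Ndufa12-ps with 82 counts.

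Ndufa4 was first assigned to complex I and is now placed in complex IV. It stood at 21.4, 9.82 and 18.3 CPM with DMSO and 24.6, 16.0, 24.8 and 12.4 CPM with Pracinostat (0.24 ± 0.36, SE), and turned to -0.03 without DMSO replicate 2. Ndufa4l2, its paralog known to be induced by hypoxia, was listed at 9, 46 and 0 counts with DMSO and at 27, 0, 0 and 0 counts with Pracinostat. Its counts came mainly from DMSO replicate 2 and Pracinostat replicate 1, the 2 libraries with the most collagen transcripts.

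Complex II, succinate dehydrogenase, also serves in the citric acid cycle and is encoded wholly in the nucleus. Sdha, the flavoprotein that oxidises succinate, was steady, at 122, 104 and 125 CPM with DMSO and 115, 121, 103 and 91.4 CPM with Pracinostat (-0.12 ± 0.17, SE). Sdhb, the iron-sulfur subunit, read 31.1, 22.8 and 31.9 CPM with DMSO and 29.5, 25.9, 26.7 and 28.9 CPM with Pracinostat. All 4 Pracinostat values of Sdhb lay inside the DMSO range, with a fold change of -0.04 ± 0.24 (SE).

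The membrane anchors that hold the haem differed from each other in estimate. Sdhc stood at 17.6, 9.82 and 16.3 CPM with DMSO and 10.3, 7.17, 11.7 and 6.66 CPM with Pracinostat. DMSO replicate 2 fell among the Pracinostat values, and the fold change was -0.70 ± 0.38 (SE), with an interval from -1.52 to 0.12. Sdhd stood at 37.3, 25.3 and 28.8 CPM with DMSO and 29.3, 31.6, 25.2 and 26.5 CPM with Pracinostat (-0.11 ± 0.24, SE). The difference between these anchors was not tested.

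Complex III, the cytochrome bc1 complex, had the steadiest member of the set. Uqcrc1, a core subunit, stood at 103, 110 and 116 CPM with DMSO and 108, 112, 96.2 and 98.7 CPM with Pracinostat. The groups overlapped with standard deviations of 5.72% and 7.31% of their means, and the fold change was -0.08 ± 0.16 (SE), with an interval from -0.42 to 0.25. Uqcrh, the hinge protein that contacts cytochrome c1, had the smallest p of the complex. It read 22.9, 22.0 and 15.0 CPM with DMSO and 29.0, 23.1, 16.1 and 34.8 CPM with Pracinostat, for 0.37 ± 0.31 (SE). Uqcrq stood at 34.5, 15.3 and 21.6 CPM with DMSO and 21.1, 31.9, 17.5 and 13.9 CPM with Pracinostat (-0.17 ± 0.35, SE).

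Uqcrfs1, the Rieske iron-sulfur protein, was at -0.01 ± 0.33 (SE), although it ranged from 16.4 to 50.4 CPM among the DMSO libraries alone. Uqcr10, a small subunit, had the largest estimate of the complex, 0.61 ± 1.02 (SE), at 3.92, 0.16 and 2.25 CPM with DMSO and 5.24, 1.34, 3.76 and 2.61 CPM with Pracinostat. Its low value in DMSO replicate 2 rests on 2 counts.

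Complex IV, cytochrome c oxidase, had 12 of 13 negative members and the lowest median of the complexes. Cox5b, a zinc-binding subunit on the matrix side, stood at 127, 77.1 and 97.0 CPM in DMSO replicates 1 to 3 and at 75.2, 55.3, 65.8 and 64.5 CPM in Pracinostat replicates 1 to 4. Every Pracinostat library lay below every DMSO library, though the closest pair, DMSO replicate 2 and Pracinostat replicate 1, differed by little. Means were 100.3 ± 25.02 CPM (SD, n = 3) and 65.21 ± 8.14 CPM (SD, n = 4). The log2 fold change was -0.62 ± 0.20 (SE), with an unadjusted interval from -1.04 to -0.20. Over all genes tested this did not pass (edgeR adjusted p = 0.9998, and 0.399 with DESeq2). The fold change was negative in each of 17 alternative fits, from -0.85 to -0.41, and its unadjusted p was 0.0734 without DMSO replicate 1. A pseudogene row, Cox5b-ps, held 1 count in all.

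The other main subunits of complex IV were negative with overlapping groups. Cox4i1, the regulatory subunit and the member of complex IV with the highest CPM, stood at 172, 109 and 134 CPM with DMSO and 140, 113, 125 and 107 CPM with Pracinostat (-0.19 ± 0.18, SE). Its fold change was -0.0004 without DMSO replicate 1. Cox8a read 77.5, 32.9 and 59.4 CPM with DMSO and 58.6, 36.6, 40.1 and 33.8 CPM with Pracinostat (-0.42 ± 0.28, SE), all Pracinostat values within the DMSO range. Cox6a1 read 80.4, 53.4 and 80.6 CPM with DMSO and 63.7, 56.8, 62.4 and 65.6 CPM with Pracinostat (-0.20 ± 0.19, SE), again within that range. Cox6c, named after its values were seen, read 147, 79.3 and 122 CPM with DMSO and 123, 112, 72.5 and 88.1 CPM with Pracinostat (-0.23 ± 0.23, SE). In each of these 4 genes DMSO replicate 2 was the lowest of the control libraries.

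Several complex IV subunits exist as isoforms, with muscle forms of Cox6a2 and Cox7a1 and a Cox4i2 form known from lung and hypoxia. Cox4i2 was listed at 4, 0 and 0 counts with DMSO and at 5, 0, 0 and 6 counts with Pracinostat, too few for a comparison. Cox7a1 stood at 1.41, 0 and 1.03 CPM with DMSO and 0.82, 1.28, 0.26 and 0.77 CPM with Pracinostat, 79 counts in all (-0.06 ± 1.72, SE). Cox7a2, its widely expressed counterpart, stood at 10.0, 11.6 and 4.56 CPM and at 8.16, 7.17, 14.7 and 7.62 CPM (0.11 ± 0.46, SE). It was the 1 member of complex IV with a positive estimate, which turned to -0.20 without DMSO replicate 3.

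Cox6a2 stood at 5.34, 3.99 and 11.5 CPM with DMSO and 7.48, 3.04, 8.51 and 4.25 CPM with Pracinostat (-0.26 ± 0.56, SE). As a share of the counts of Cox6a1 and Cox6a2 together, it held 8.56 ± 3.43% (SD, n = 3) and 8.42 ± 3.36% (SD, n = 4), a difference smaller than the spread between libraries. The muscle marker sums given above differed between the groups, mainly through Ttn, and their part in these isoform values was not tested. Cox7a2l, which helps join complexes III and IV into supercomplexes, stood at 24.7, 17.9 and 17.2 CPM and at 17.3, 17.7, 23.7 and 15.9 CPM (-0.09 ± 0.29, SE).

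Complex V, the ATP synthase, holds the most abundant members. Atp5f1a, the alpha subunit of the catalytic head, stood at 391, 350 and 446 CPM with DMSO and 381, 342, 377 and 349 CPM with Pracinostat (-0.13 ± 0.14, SE), which was the narrowest interval of the set, from -0.44 to 0.18. Atp5f1b, the catalytic beta subunit, stood at 344, 277 and 356 CPM and at 363, 284, 361 and 257 CPM (-0.04 ± 0.17, SE). Both head subunits overlapped between the groups. Atp5f1d, of the central stalk, read 109, 65.2 and 83.0 CPM with DMSO and 84.5, 69.6, 49.96 and 74.0 CPM with Pracinostat (-0.30 ± 0.22, SE).

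Atp5mk, a small membrane subunit, had the other unadjusted p under 0.05 (0.0277). It stood at 14.2, 22.0 and 5.72 CPM with DMSO and at 6.80, 5.41, 7.19 and 6.18 CPM with Pracinostat, for -1.13 ± 0.46 (SE). The Pracinostat values were close together, and DMSO replicate 3 lay among them. Without DMSO replicate 2, its highest library, the fold change was -0.64, and without DMSO replicate 3 it was -1.5. Atp5mj, another small membrane subunit, stood at 42.1, 41.1 and 50.02 CPM with DMSO and 37.3, 42.5, 35.4 and 18.2 CPM with Pracinostat (-0.41 ± 0.27, SE), the last library being low. Atp5if1, the inhibitor that stops the synthase from running backwards, read 177, 90.8 and 113 CPM with DMSO and 131, 84.4, 95.96 and 102 CPM with Pracinostat (-0.29 ± 0.23, SE), and was at 0.03 without DMSO replicate 1.

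Subunit c of the membrane rotor is encoded by 3 genes for the same mature protein. Atp5mc3 held 70.8 ± 6.46% (SD, n = 3) of the counts of Atp5mc3 and Atp5mc2 with DMSO and 71.0 ± 3.37% (SD, n = 4) with Pracinostat. The fold changes were 0.09 ± 0.26 (SE) for Atp5mc3, 0.00 ± 0.36 (SE) for Atp5mc2 and 0.11 ± 0.48 (SE) for Atp5mc1. Atp5f1e, the epsilon subunit, was erratic, at 1.73, 4.95 and 0.13 CPM with DMSO and 4.63, 0.24, 0.13 and 3.18 CPM with Pracinostat.

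**Figure D3:**
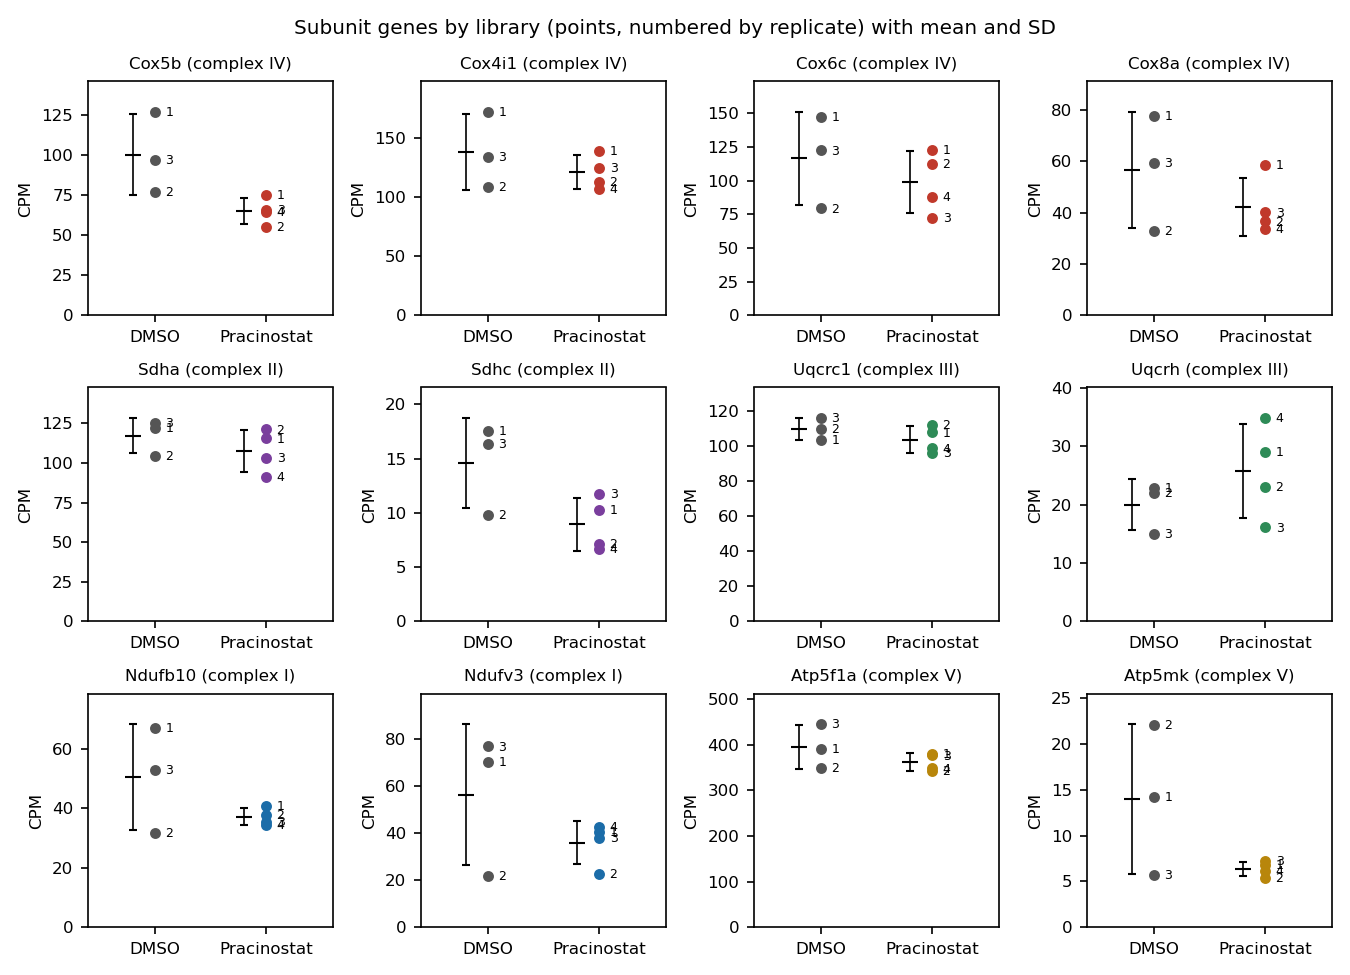
CPM (vertical axis, from 0) of 12 subunit genes by group; each point is 1 library numbered by its replicate, and the bar beside it shows the mean and SD of the group. Cox5b alone has all Pracinostat points below all DMSO points, and DMSO replicate 2 is the lowest control library in most panels but the highest for Atp5mk.

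Per transcript length, the members spanned a wide range. Lengths came from the principal transcripts of GENCODE vM21, another annotation than the authors', and were found for 77 of 84 members. CPM per kilobase ran from 0.95 for Ndufa4l2 to 176 for Cox6c, with a median of 29.3. Cox6c and Cox4i1 (173 CPM per kilobase) in complex IV and Atp5f1b (167) and Atp5f1a (152) in complex V were the highest of those with a length, and their order rests on lengths that differ between annotations. Abundant members of complex V without a length, Atp5if1 (113 CPM) and Atp5pb (95.2 CPM), are missing from this order and from the median of complex V. The median was 23.4 CPM per kilobase in complex I, 24.1 in complex II, 44.4 in complex III, 38.4 in complex IV and 64.2 in complex V. The highest of complex I was Ndufa6, at 70.03 CPM per kilobase, and the lowest of complex II was Sdhc, at 3.58.

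**Figure D4:**
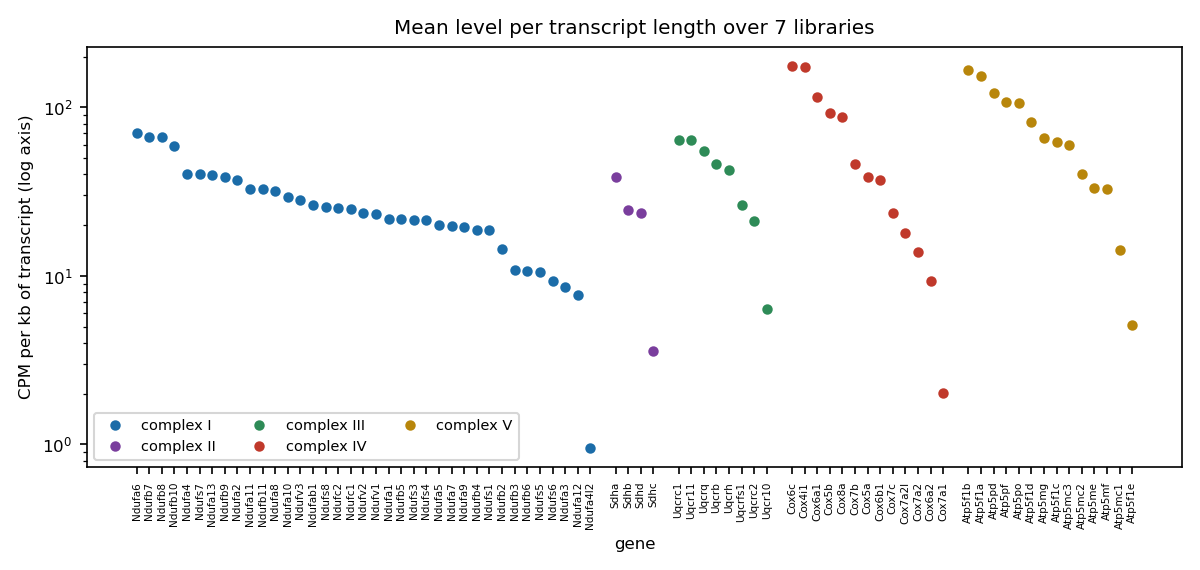
Mean level over the 7 libraries in CPM per kilobase of transcript (vertical log axis) for 76 of the 77 subunit genes with a length, sorted within each complex. Complexes IV and V reach above 100 CPM per kilobase, complexes I and III stay below 71, and Ndufa4l2 is the lowest point at 0.95.

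Genes around the respiratory chain also held 0 calls over all genes tested (edgeR). The lists below were not tested as sets, and some genes in them had groups that did not overlap. Over all genes tested, the groups did not overlap for 2.59% on the lower and 3.5% on the higher side. Of 18 assembly factors of complex I 8 were negative (median 0.03), of 12 for complexes II and III 6 (0.03), of 24 for complex IV 15 (-0.26) and of 5 for complex V 5 (-0.36). Sco1, a copper chaperone of complex IV, stood at 4.63, 5.43 and 4.56 CPM with DMSO and 13.9, 9.48, 8.05 and 14.6 CPM with Pracinostat. All Pracinostat libraries were higher, at a fold change of 1.24 ± 0.44 (SE; edgeR adjusted p = 0.9998). Surf1, another assembly factor of complex IV, was at -0.44 ± 0.34 (SE). Dmac2, an assembly factor of complex I, was lower in every Pracinostat library (7.53 to 11.6 CPM against 13.7 to 22.6 CPM; -0.87 ± 0.35, SE). The groups overlapped for Tmem186 of complex I (-0.74 ± 0.40, SE), Sdhaf2 of complex II (0.27 ± 0.32, SE), Uqcc1 of complex III (-0.42 ± 0.53, SE), and Atpaf2 and Tmem70 of complex V (-0.48 ± 0.47 and -0.36 ± 0.70, SE).

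Among 13 regulators of mitochondrial biogenesis 5 were negative (median 0.04). Polrmt, the mitochondrial RNA polymerase, stood at 37.3, 63.5 and 38.6 CPM with DMSO and 33.5, 27.5, 25.5 and 25.0 CPM with Pracinostat. Every Pracinostat library was lower (-0.74 ± 0.25, SE; edgeR adjusted p = 0.9998). Tfb2m, its initiation factor, was at -1.13 ± 0.47 (SE) with overlapping groups. Nrf1 and Gabpa, the factors whose letters the promoters were searched for, were at 0.44 ± 0.25 (SE) and 0.08 ± 0.18 (SE), and Tfam, which packages mitochondrial DNA, was at 0.00 ± 0.32 (SE). Ppargc1a, the coactivator of biogenesis, was at 0 CPM in each DMSO library and at 0 to 1.82 CPM with Pracinostat, too low for the test.

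Electron carriers had 10 of 18 negative (median -0.15). Cycs, cytochrome c, was at 0.21 ± 0.24 (SE) and Cyc1, the cytochrome c1 of complex III that the symbol rule leaves out, at 0.22 ± 0.25 (SE). In 3 of these 18 genes every Pracinostat library was lower than every DMSO library (2.59% of all genes tested). In 1 every Pracinostat library was higher (3.5% of all genes). Etfb and Etfa, which form the electron transfer flavoprotein, were among the lower (-0.45 ± 0.22 and -0.41 ± 0.23, SE), with Etfb at 28.5 to 42.2 CPM under Pracinostat and 42.8 to 55.6 CPM under DMSO. Coq8a, of ubiquinone synthesis, was the other (-0.83 ± 0.45, SE). Pdss1, also of ubiquinone synthesis, was the higher one, at 3.10 to 7.72 CPM under Pracinostat and 1.73 to 2.70 CPM under DMSO (1.18 ± 0.69, SE). Etfa and Pdss1 are named after their values were seen. The citric acid cycle and pyruvate dehydrogenase genes had 8 of 19 negative (median 0.04). Within them, Pdha1, the E1 alpha subunit of pyruvate dehydrogenase, and Idh3g, of isocitrate dehydrogenase, were lower in every Pracinostat library (-0.44 ± 0.19 and -0.44 ± 0.21, SE). Glycolysis genes had 11 of 18 negative (median -0.04), with the glucose transporter Slc2a1 at -0.40 ± 0.21 (SE) and the lactate exporter Slc16a3 at 0.34 ± 0.19 (SE).

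The library pattern was not confined to the respiratory chain. The average deviation of log2 CPM from each gene's mean was 0.29 in DMSO replicate 1 and -0.46 in DMSO replicate 2 for 78 mitochondrial ribosomal proteins, and 0.27 and -0.38 for 82 cytosolic ribosomal proteins. Their median fold changes were -0.02 and 0.02, with 41 of 78 and 35 of 82 negative. The smallest p of these lists belonged to Mrps14 (-0.72 ± 0.32, SE), Mrps24 (1.04 ± 0.52, SE), Rpl5 (0.36 ± 0.18, SE) and Rpl28 (0.22 ± 0.18, SE), of which Mrps14 alone had groups that did not overlap. For glycolysis the same libraries were at 0.03 and -0.11. DMSO replicate 2 was also the library with the fewest detected genes (16319), and its part in the comparison of the groups is given by the values without it.

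**Figure D5:**
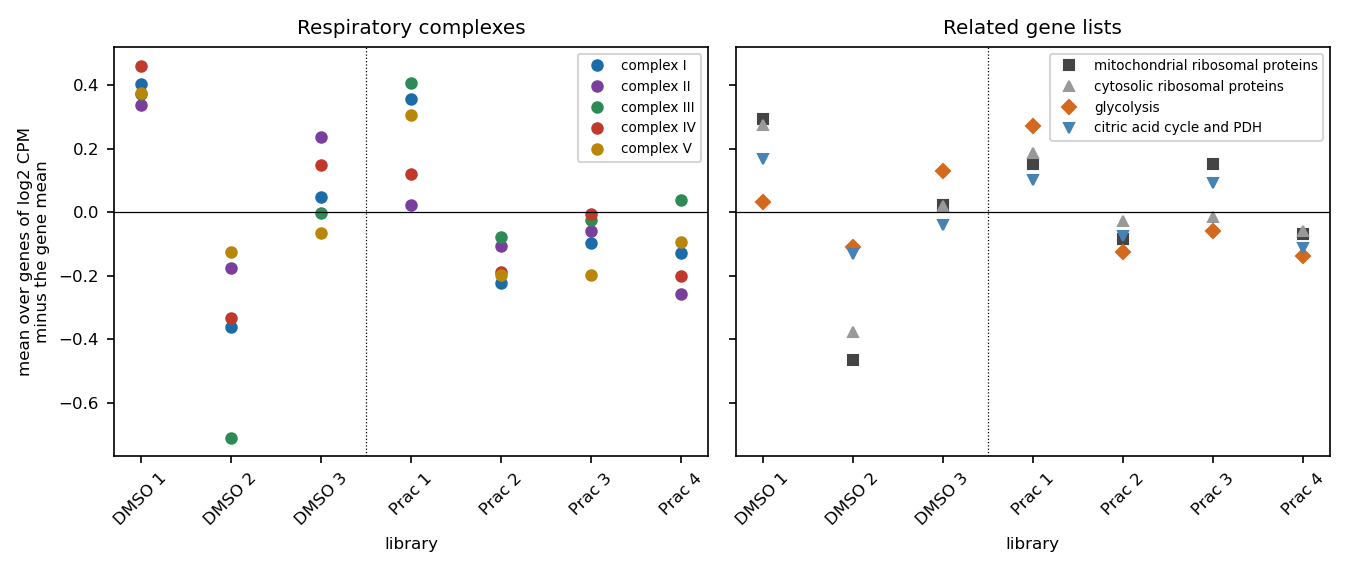
Average deviation of log2 CPM from each gene's own mean (vertical axis, averaged over genes) in each library, for complexes I to V (left) and for 4 related lists (right); the dotted line separates 3 DMSO from 4 Pracinostat libraries. DMSO replicate 1 is above 0 for all 5 complexes and DMSO replicate 2 below 0, and both ribosomal protein lists show the same order.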

How the data were processed

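RNA of sorted CD11b+ cells was measured in 3 DMSO and 4 Pracinostat libraries. Per the labels' protocols, stranded total RNA libraries (1 ng input) were read from both ends, 150 bases each, on 2 lanes. The authors deposited unnormalized expected counts, 1 row per symbol, stored as whole numbers by the authors and used as such. Per the submitters' processing notes, the build was GRCm39 and the tools were STAR, RSEM, DESeq2, Trim Galore, FastQC and MultiQC. Tool versions, annotation and strand setting: not given in the sources used here. Counts of genes with pseudogene copies or overlapping genes are therefore uncertain. Rows named by Ensembl identifier numbered 3205 and held 1.21% of counts.

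Groups were compared with edgeR 4.0.16 (R 4.3.3): TMM factors, genes kept by filterByExpr (minimum count 10), robust quasi-likelihood fit, two-sided test, Benjamini-Hochberg adjustment over 15822 genes, threshold 0.05. Fold changes are log2, Pracinostat minus DMSO, with standard errors; intervals are at 95%, unadjusted. CPM use TMM-scaled library totals, and log2 CPM a prior count of 2. Alternatives used other scalings and filters, DESeq2 1.42.0, limma-voom (limma 3.58.1), the replicate number as a block and fewer libraries. In data simulated for this comparison (3 runs, 200 changed genes each, 15822 genes), 24% of genes changed 2-fold and 70.3% of those changed 4-fold were recovered, and 0.0575% of the unchanged were called. The changed genes were drawn from those with a log2 CPM of 2 or higher, so recovery among lower genes was not measured. No 2 libraries were near duplicates (chi-square over degrees of freedom 31.9 or more for each pair).

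Members and lists were chosen with earlier results of these data known. Named by rule were, per complex, the 3 smallest p (mean log2 CPM 2 or higher) and the highest CPM, members with groups that do not overlap, 14 isoforms and subunits listed with those results known, and the 2 smallest p of each related list. Core and other members are named to describe their complex, after their values were seen. One member of complex I, counted in all totals, is not reported here by itself and is not drawn.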

Additional observations from a re-analysis of the deposited data

Results flagged for a closer look

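Dixon's criterion (95%) was applied to 58 values of the Pracinostat group, and in 4 of them 1 library lay far from the remaining 3. Chance gives about 1 in 20 such groups, and the DMSO group of 3 was not screened. Ndufa4l2 was at 1.84 CPM in Pracinostat replicate 1 and at 0 in the other 3, with 0 to 3.67 CPM among DMSO libraries. Cox7a2 read 14.7 CPM in Pracinostat replicate 3, where the range was 7.17 to 8.16 CPM in the others and 4.56 to 11.6 CPM with DMSO. Idh3g read 34.6 CPM in Pracinostat replicate 3, where it was 39.8 to 40.7 CPM in the others and 43.1 to 58.6 CPM with DMSO. Complex I summed to 1118 CPM in Pracinostat replicate 1, and to 858 to 895 CPM in the others and 733 to 1244 CPM with DMSO.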

How the results depend on the processing

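The count of 0 members called held in all 17 alternative fits. Over the table, the count of 0 genes called became 63 with no low-count filter, 27 with DESeq2, 4 with the replicate number as a block and 0 to 3 when 1 library was left out (3 without DMSO replicate 3). The number of members with a negative fold change ran from 34 to 68 (53 with all libraries) when 1 library was left out, both extremes coming from a DMSO library. Members lower at an unadjusted p under 0.05 (2 with all libraries) numbered 10 without DMSO replicate 2, 0 without DMSO replicate 1 and 14 without both collagen-rich libraries, DMSO replicate 2 and Pracinostat replicate 1. In that last fit the median of complex I was -0.36 (-0.02 with all). The shares of all genes were not counted in the alternative fits, so these member counts have no background there. The median of all genes ran from 0.00 to 0.09 over those fits. The median of complex III was -0.06 without DMSO replicate 2, -0.06 without Pracinostat replicate 1 and 0.30 without DMSO replicate 1. Without scaling the median of all genes was 0.00, and that of the members -0.10. Moving Ndufa4 and Ndufa4l2 to complex IV and leaving out Atp5if1 and Cox7a2l gave medians of -0.02, -0.21 and -0.09 for complexes I, IV and V.

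Among the genes named by the rule, signs turned when 1 library was left out for the following, with the range over those fits: Atp5if1 -0.49 to 0.026, Cox6a2 -0.53 to 0.32, Cox7a1 -0.64 to 0.59, Cox7a2 -0.20 to 0.37, Cox7a2l -0.23 to 0.094, Ndufa4 -0.026 to 0.47, Ndufa4l2 -2.22 to 0.38. The same held for Sdhb -0.182 to 0.041, Sdhd -0.23 to 0.061, Tmem70 -0.88 to 0.0477, Uqcrq -0.444 to 0.195. Other genes described above turned too: Atp5f1b kept its sign in 12 of 17 alternative fits, Ndufv1 and Uqcrfs1 in 11, Atp5mc1 and Atp5mc3 in 15, and Atp5mc2 in 7. Without both collagen-rich libraries Ndufa4 was at -0.15 and Tmem70 at 0.083, and with limma-voom Cox7a1 was at 0.80 and Tmem70 at 0.38. The cause was not tested. The labels do not say that equal replicate numbers mark pairs, and deviations of same-numbered libraries correlated at 0.04, -0.04 and 0.07 over all genes, with DMSO replicate 2 closest to Pracinostat replicate 4. The replicate block, which also leaves out Pracinostat replicate 4, called 4 genes and 0 members, gave 44 negative members and turned Cox7a1 to 0.18. At this depth the lowest members rest on few counts (79 for Cox7a1 and 82 for Ndufa4l2 over 7 libraries). The 24% of simulated 2-fold changes that were called is for genes with a log2 CPM of 2 or higher, so it does not cover these members.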
